A study of Mus musculus with 62 samples.

Results

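Activity-regulated plasticity genes are genes that neurons switch on, or whose products act, when synapses are stimulated. The 10 genes described here are Npas4, Bdnf, Arc, Homer1, Nptx1, Nptx2, Nptxr, Rheb, Plk2 and Sik1. They were picked by symbol from the deposited gene abundance tables, which list 53975 gene identifiers, and all 10 were found. Nearly all of this group is known from work on synaptic scaling, long-term potentiation and memory in the hippocampus. Calcium entering a stimulated neuron activates CREB and related factors, which turn on immediate-early genes such as Npas4 and Arc within minutes. The products then change the number of AMPA-type glutamate receptors at synapses, release growth factors, and adjust signalling so that firing returns towards its set level.

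The study sequenced long RNA, after ribosomal RNA depletion and fragmentation, from hippocampus and from HT-22 cells, an immortalised mouse hippocampal line of 1 origin used at passage 4. Hippocampi of the left and right side of each mouse library went together, and 17 libraries came from mice of 2 strains at 3 ages. The APP NL-G-F strain carries a humanised amyloid beta sequence with familial Alzheimer's disease mutations in its own App gene, so no foreign promoter drives it, and it gave 3 libraries at each of 3, 6 and 12 months. The C57BL/6J strain served as the wild type, with 2 libraries at 3 months, 3 at 6 months and 3 at 12 months. HT-22 cells gave 14 libraries in 4 groups. Cells received for 24 h a locked nucleic acid (LNA) oligonucleotide against HSF1, the heat shock transcription factor, or a scrambled LNA, and then 30 µM of amyloid beta 1-42 or of the same residues in reverse order, the control peptide. Amyloid beta was given after the scramble to 4 libraries and after the anti-HSF1 LNA to 3, and the reverse peptide likewise to 4 and 3. The treatment notes give 150 nM for the anti-HSF1 LNA and 50 µM for the scramble, so the target and the concentration cannot be told apart. The labels do not say whether mouse libraries with different numbers were single animals, or HT-22 libraries separate cultures, so p-values measure the spread between these libraries.

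Values are TPM, a level corrected for transcript length and for the size of the library, summed per gene identifier and divided by a median-of-ratios factor for each library, within mice and within HT-22 cells separately. Changes are differences in log2(scaled TPM + 1), with a standard error (SE), from 1 limma fit over the 17 mouse or the 14 HT-22 libraries. A gene was called at a Benjamini-Hochberg adjusted p below 0.05 over all genes whose TPM averaged 1 or more, which were 17840 in mice and 17291 in HT-22 cells. Relative depth, read from coverage over FPKM, spanned 1.42 to 3.04 in the mouse and 0.724 to 2.60 in the HT-22 libraries. The read counts themselves are unknown, and no counting interval is given.

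A few libraries stood apart. APP NL-G-F replicate 1 at 3 months held summed scaled TPM of 264 over 7 striatal markers and 414 over 6 thalamic markers, against 37.2 to 90.2 and 20.7 to 131 in the other 16 mouse libraries. Its oligodendrocyte sum was 2812 (846.8 to 2359 in the others), its choroid plexus sum 2426 (35.2 to 1646), its CA1 sum 40.1 (69.3 to 129) and its sum over 8 neuronal markers 1758 (1986 to 2499). Results that rest on this replicate are given with and without it. Other libraries differed too. Thalamic sums were 131 in APP NL-G-F replicate 1 at 6 months and 123 in replicate 2 at 3 months, and at most 46.6 in the rest. The choroid plexus sum of 35.2 was that of APP NL-G-F replicate 2 at 6 months. Foxp2 was at 5.92 to 21.7 in the APP NL-G-F libraries at 3 months and at most 2.87 in the others. Leaving out replicate 1 at 3 months thus does not remove all such differences. Xist, the X-inactivation RNA, was at 71.2 to 138 in every APP NL-G-F library and in the wild type at 3 months, but at 0.266 to 0.522 in the wild type at 6 and 12 months, where the Y-linked Ddx3y was at 18.6 to 28.3. Comparisons of genotype at 6 and 12 months, and of wild type at 12 and 3 months, therefore also set libraries without Y-linked transcripts against libraries with them. The genotype difference averaged over ages, and the test of whether it varied with age, draw on these comparisons and so carry this too. In HT-22 cells the 8 neuronal markers summed to 7.07 to 13.9, and the 4 dentate gyrus markers were listed at 0 in every library. Hsf1 itself, the target of the LNA, was at 48.8 to 71.6 with scramble and 43.4 to 51.5 with anti-HSF1 under amyloid beta, and at 43.0 to 61.7 and 43.0 to 52.5 under the reverse peptide, so its ranges overlapped within each peptide.

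**Figure D1:**
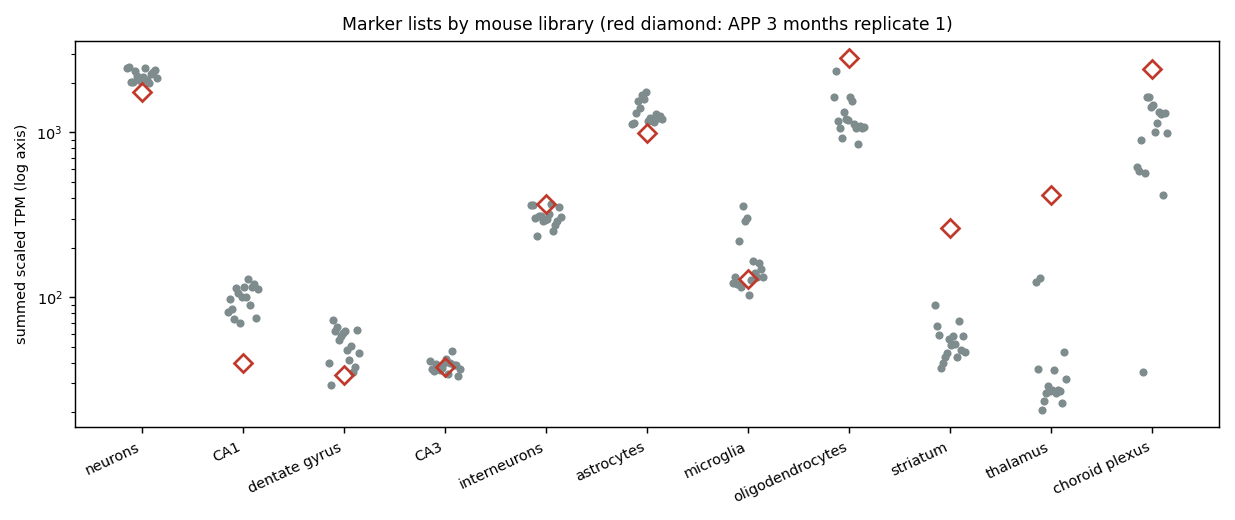
Summed scaled TPM (log axis) of 11 marker lists of cell types and brain regions in the 17 mouse libraries. The red diamond is APP NL-G-F replicate 1 at 3 months, which lies above the other 16 libraries for striatum (264) and thalamus (414) and below them for CA1 (40.1) and neurons (1758).

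Stretches upstream of members were read from RefSeq annotation on GRCm38.p6, where 5 of the 10 members (Npas4, Bdnf, Homer1, Rheb and Plk2) had 12 start-site windows. Each was searched over 250 bases before the start for TGACGTCA, the cAMP response element bound by CREB, and for its shorter form TGACG. A serum response element was searched in 1 fixed spelling only, and all searches covered both strands. Other spellings of that element were not searched. TGACGTCA lay in 1.55% of 32851 such windows of all genes, and TGACG in 17.8% (each TGACGTCA holds it on both strands). The searched spelling of the serum response element lay in 0.0609%. The 3 windows below each hold a match, belong to members that were highest in the same 3 HT-22 libraries, described further down, and overlap no annotated exon. The other windows of Homer1 and Bdnf overlap no annotated exon either. They hold neither TGACGTCA nor TGACG and are not shown. Capitals mark TGACGTCA in Plk2 and TGACG or its reverse complement in the others.
Plk2, chr13:110394794-110395043, plus strand: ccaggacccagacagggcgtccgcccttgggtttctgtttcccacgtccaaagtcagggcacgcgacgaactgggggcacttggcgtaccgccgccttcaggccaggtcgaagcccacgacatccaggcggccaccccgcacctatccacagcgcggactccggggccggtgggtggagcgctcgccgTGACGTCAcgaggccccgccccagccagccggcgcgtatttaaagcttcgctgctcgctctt
Homer1, chr13:93303507-93303756, plus strand: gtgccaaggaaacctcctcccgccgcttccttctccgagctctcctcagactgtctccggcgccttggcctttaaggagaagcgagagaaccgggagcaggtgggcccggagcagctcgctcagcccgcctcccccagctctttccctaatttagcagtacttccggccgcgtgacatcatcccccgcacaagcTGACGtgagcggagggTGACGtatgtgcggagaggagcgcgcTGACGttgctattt
Bdnf, chr2:109692186-109692435, plus strand: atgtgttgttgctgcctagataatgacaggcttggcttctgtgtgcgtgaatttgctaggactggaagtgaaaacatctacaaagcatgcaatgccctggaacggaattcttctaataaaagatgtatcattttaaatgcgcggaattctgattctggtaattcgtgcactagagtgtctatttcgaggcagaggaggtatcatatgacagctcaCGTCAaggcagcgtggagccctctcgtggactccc
Plk2 held TGACGTCA at position -62 from its start. In the printed Homer1 window TGACG stood 3 times, at -56, -40 and -14. The Bdnf window, 1 of 7 for that gene, held it at -35. Npas4 held TGACG at -169 and -179 and Rheb at -247. The searched spelling of the serum response element was in none of the 12 windows. Whether they hold the element in another spelling was not tested. A match describes letters in a window and not a bound site.

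Between 3 and 12 months in APP NL-G-F hippocampus, 2 of the 10 members fell and none rose. Sik1 and Nptx2 were the 2. Arc and Homer1 fell as well when replicate 1 at 3 months was left out, which made 4 of 10, against 2.27% of genes called in that fit. That replicate was the lowest of all 17 libraries for both, so leaving it out was bound to enlarge their falls. With each library left out in turn, Arc ranged from -2.22 to -0.88 (limma adjusted p 0.000375 to 0.417). Homer1 ranged from -1.29 to -0.34 (limma adjusted p 0.00369 to 0.671). Over all 17 libraries no member was called between the genotypes at any age. The 2 called members compare with 3.34% of all 17840 genes called in that contrast (1.86% higher, 1.49% lower), and 5 of the 10 had an unadjusted p below 0.05, as did 16.5% of genes. The members' median log2 change was -0.38, against a median of 0.00 over all genes. These directions had been seen in these data when the members were chosen, so the counts are a description.

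**Figure D2:**
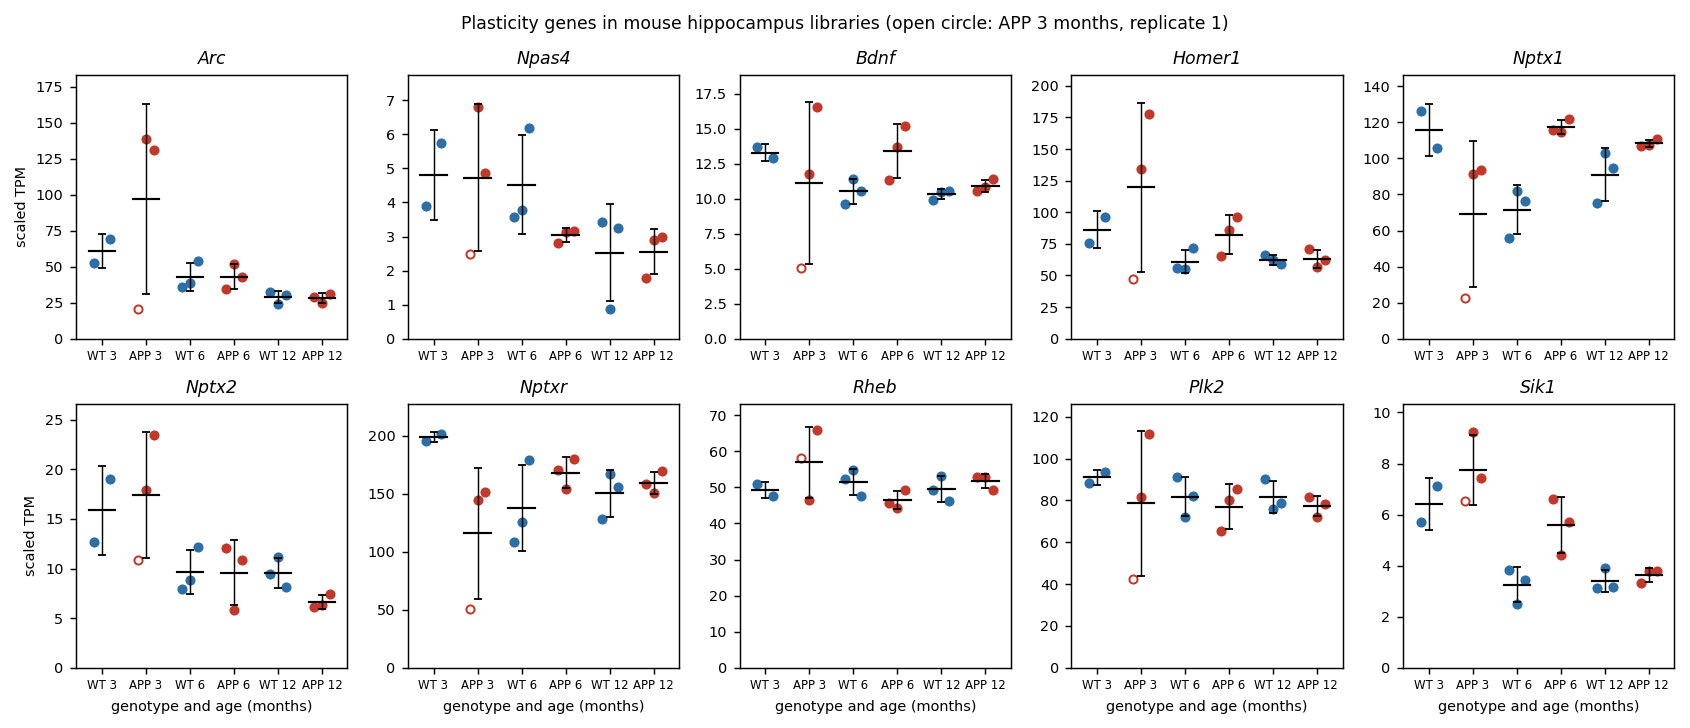
Scaled TPM of the 10 members in each mouse library at 3, 6 and 12 months, APP NL-G-F in red and wild type in blue, with bars for the mean and SD of each group and an open circle for APP NL-G-F replicate 1 at 3 months. In APP NL-G-F mice Arc is at 20.6 in replicate 1 and at 131 and 138 in the other 2 libraries at 3 months, and at 24.5 to 30.9 at 12 months. Over all 17 libraries that change was not called (limma adjusted p = 0.180). Replicate 1 is the lowest of all 17 libraries for Arc, Bdnf, Homer1, Nptx1, Nptxr and Plk2.

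Npas4 (ENSMUSG00000045903, chr19:4984355-4989971, minus strand) is a neuron-restricted transcription factor induced by calcium entry that drives Bdnf among its targets. In APP NL-G-F mice it was at 2.50, 6.81 and 4.85 scaled TPM at 3 months, 2.82, 3.14 and 3.17 at 6 months and 1.80, 2.90 and 2.98 at 12 months. Wild-type mice gave 3.88 and 5.75, then 3.58, 3.78 and 6.19, then 3.43, 0.876 and 3.25. Both genotypes were highest in mean at 3 months, and at 6 months all 3 wild-type libraries lay above all 3 APP NL-G-F libraries, as did 10.1% of genes. It was not called in any contrast, and its 17 values spanned 0.876 to 6.81.

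Arc (ENSMUSG00000022602, chr15:74669083-74672570, minus strand) encodes a cytoskeleton-associated protein that promotes removal of AMPA receptors from the synapse. At 3 months the APP NL-G-F libraries held 20.6, 138 and 131 scaled TPM and the wild-type libraries 52.6 and 69.2. At 6 months the levels were 34.8, 51.7 and 42.9 against 36.1, 38.6 and 53.9, and at 12 months 29.2, 24.5 and 30.9 against 32.2, 24.1 and 30.1. The genotypes overlapped at every age, and both were lowest in mean at 12 months. Over all 17 libraries the APP NL-G-F change from 3 to 12 months was -1.34 (SE 0.50, limma adjusted p = 0.180). Without replicate 1 at 3 months it was -2.22 (SE 0.20, limma adjusted p = 0.000375). In the wild type the same span gave -1.05 (SE 0.56, limma adjusted p = 0.647), with both 3-month libraries above all 3 at 12 months, as for 14.6% of genes.

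Homer1 (ENSMUSG00000007617, chr13:93299635-93405129, plus strand) encodes the postsynaptic scaffold that links metabotropic glutamate receptors to their effectors. Its short activity-induced form, Homer1a, cannot be separated from the long forms in these gene sums. APP NL-G-F libraries held 46.9, 134 and 178 scaled TPM at 3 months, 65.2, 85.6 and 95.9 at 6 months, and 70.6, 56.5 and 62.0 at 12 months. Wild-type libraries held 75.6 and 96.4, then 56.0, 55.0 and 71.6, then 66.6, 62.3 and 58.7. As for Arc, replicate 1 at 3 months was below all other libraries while replicates 2 and 3 were above them. The APP NL-G-F change from 3 to 12 months was -0.72 (SE 0.33, limma adjusted p = 0.297) with that library and -1.29 (SE 0.18, limma adjusted p = 0.00369) without it.

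Bdnf (ENSMUSG00000048482, chr2:109674700-109727007, plus strand) encodes a secreted neurotrophin that strengthens synapses through the TrkB receptor. It was at 5.02, 11.8 and 16.5 scaled TPM in APP NL-G-F mice at 3 months, 11.3, 13.7 and 15.2 at 6 months and 10.6, 10.8 and 11.4 at 12 months. The wild type had 13.7 and 12.9, then 9.64, 11.4 and 10.6, then 9.91, 10.5 and 10.6. Apart from replicate 1 at 3 months, all values lay between 9.64 and 16.5, and every neighbouring pair of groups in the order of means overlapped. Of its exonic bases 14.4% are shared with Gm45346, an antisense gene, and reads of the pair cannot be told apart if counting ignored strand.

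The neuronal pentraxins Nptx1 and Nptx2 are secreted proteins that cluster AMPA receptors at synapses, and Nptxr is their membrane-bound partner. Nptx2, also called Narp, is the activity-induced member. Nptx2 (ENSMUSG00000059991, chr5:144545902-144557478, plus strand) was at 10.9, 17.9 and 23.5 scaled TPM in APP NL-G-F mice at 3 months, 12.1, 5.84 and 10.8 at 6 months and 6.11, 6.37 and 7.39 at 12 months. Wild-type libraries held 12.7 and 19.0, then 7.94, 8.80 and 12.2, then 9.42, 11.1 and 8.11. All APP NL-G-F libraries at 12 months were below all of those at 3 months, as were 11.4% of genes, and below all wild-type libraries at 12 months, as were 6.67%. The fall from 3 to 12 months was -1.21 (SE 0.27, limma adjusted p = 0.0258). It was -1.50 (SE 0.26, limma adjusted p = 0.0100) without replicate 1 at 3 months, but leaving out any of the other 5 libraries of these groups raised the limma adjusted p to between 0.0686 and 0.0955. At 12 months the difference between genotypes was -0.46 (SE 0.27, limma adjusted p = 0.835), which did not pass the test.

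Nptx1 (ENSMUSG00000025582, chr11:119538719-119547753, minus strand) was higher in mean at 12 than at 3 months in APP NL-G-F mice without overlap, as were 10.6% of genes, but did not pass the test. Levels were 22.3, 91.2 and 93.6 scaled TPM at 3 months, 116, 115 and 122 at 6 months and 107, 107 and 111 at 12 months. Wild-type levels were 126 and 106, then 56.1, 81.9 and 76.4, then 75.0, 103 and 94.9. APP NL-G-F libraries were all below the wild type at 3 months (13% of genes were), and all above it at 6 months (11%) and 12 months (8.81%). The genotype differences were -0.99 (SE 0.42, limma adjusted p = 0.316) at 3 months, 0.73 (SE 0.37, limma adjusted p = 0.346) at 6 months and 0.26 (SE 0.37, limma adjusted p = 0.983) at 12 months. Without replicate 1 at 3 months the value at 3 months was -0.32 (limma adjusted p = 0.590). In that fit the difference at 6 months had the same size and a smaller error (0.73, SE 0.14, limma adjusted p = 0.0188), and 2.75% of genes were called. The test that the genotype difference varied with age gave a limma adjusted p of 0.230. It and the differences at 6 and 12 months carry the Y-linked difference named above.

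Nptxr (ENSMUSG00000022421, chr15:79786351-79804766, minus strand) had the highest levels of the pentraxin group on the length-corrected scale. APP NL-G-F libraries held 50.8, 145 and 152 scaled TPM at 3 months, 170.3, 154 and 179.9 at 6 months and 158, 151 and 169.6 at 12 months. Wild-type libraries held 195 and 202, then 108, 125 and 179, then 128, 167 and 156. The wild type at 3 months was above every other group, and the other 5 groups overlapped their neighbours in the order of means. At 3 months the genotype difference was -0.93 (SE 0.34, limma adjusted p = 0.243), and -0.42 (limma adjusted p = 0.479) without replicate 1. Reads over 17.2% of its exonic bases may belong to Npcd, a gene annotated on the same strand.

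Sik1 (ENSMUSG00000024042, chr17:31844248-31855792, minus strand) encodes a salt-inducible kinase that phosphorylates the CREB coactivators of the CRTC family and so limits CREB-driven transcription. It was at 6.55, 9.24 and 7.42 scaled TPM in APP NL-G-F mice at 3 months, 6.61, 4.43 and 5.73 at 6 months and 3.31, 3.80 and 3.80 at 12 months. The wild type had 5.71 and 7.14, then 3.82, 2.49 and 3.45, then 3.14, 3.91 and 3.18. In the order of means, APP NL-G-F at 3 months, wild type at 3 months and APP NL-G-F at 6 months overlapped their neighbours, and the other 3 groups lay below all of them. The fall from 3 to 12 months in APP NL-G-F mice was -0.90 (SE 0.17, limma adjusted p = 0.0106), and -1.003 (SE 0.19, limma adjusted p = 0.0131) without replicate 1 at 3 months. Leaving out replicate 1 at 12 months instead gave a limma adjusted p of 0.0549. In the wild type the change over the same span was -0.75 (SE 0.19, limma adjusted p = 0.281). At 6 months Sik1 was higher in all 3 APP NL-G-F libraries than in all 3 wild-type libraries, as were 11% of genes. The difference of 0.63 (SE 0.17, limma adjusted p = 0.0764) did not pass the test, and that contrast carries the Y-linked difference named above.

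Plk2 (ENSMUSG00000021701, chr13:110395046-110400844, plus strand) encodes a polo-like kinase that acts in homeostatic weakening of synapses after raised activity. APP NL-G-F libraries held 42.3, 81.7 and 112 scaled TPM at 3 months, 65.2, 80.3 and 85.6 at 6 months and 81.5, 72.1 and 78.2 at 12 months. Wild-type libraries held 88.5 and 93.6, then 91.4, 72.3 and 81.9, then 90.4, 75.8 and 79.0. Outside the 3-month APP NL-G-F group its values spanned only 65.2 to 93.6, and all neighbouring groups overlapped.

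Rheb (ENSMUSG00000028945, chr5:24802823-24842624, minus strand) encodes the small GTPase that switches on mTORC1 and protein synthesis. Its levels were 58.1, 46.6 and 65.9 scaled TPM in APP NL-G-F mice at 3 months, 45.7, 44.3 and 49.2 at 6 months and 52.8, 52.7 and 49.4 at 12 months. The wild type gave 50.9 and 47.6, then 52.4, 54.7 and 47.6, then 49.3, 53.1 and 46.1. All 17 values lay between 44.3 and 65.9, a ratio of highest to lowest of 1.49 that no other member went below, and all groups overlapped their neighbours.

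**Figure D3:**
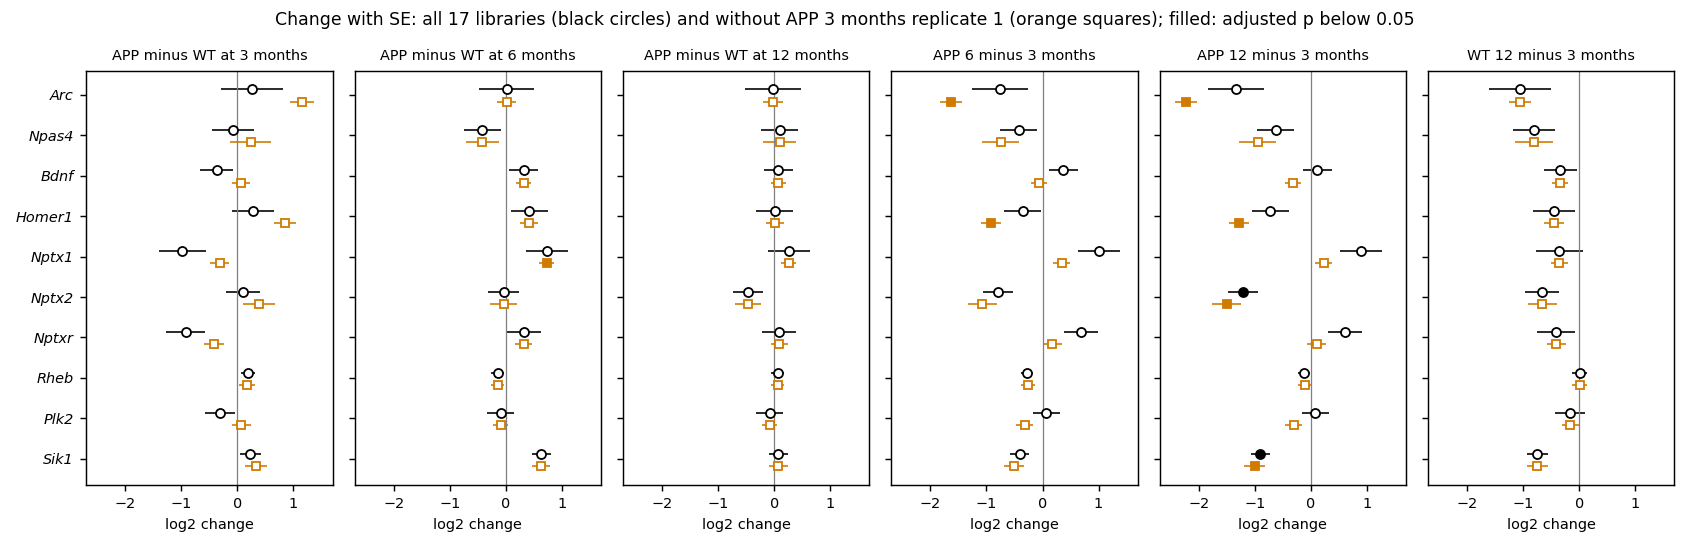
Log2 change with its SE for the 10 members in 6 mouse comparisons, over all 17 libraries (black circles) and without APP NL-G-F replicate 1 at 3 months (orange squares), with filled symbols at a limma adjusted p below 0.05. Arc moves from -1.34 to -2.22 and Homer1 from -0.72 to -1.29 between 3 and 12 months in APP NL-G-F mice when that library is left out.

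Across all mouse contrasts the remaining counts were 0 called members. Between genotypes at 3 months limma called 0 of 10 (0.297% of genes), at 6 months 0 of 10 (1.43%) and at 12 months 0 of 10 (0.454%). An unadjusted p below 0.05 was found for 2, 1 and 0 members at these ages, and for 13.3%, 16.9% and 6.98% of all genes. Averaged over ages it called 0 of 10 (0.219% of genes; 1 member at an unadjusted p below 0.05, as for 12.2% of genes), with Sik1 at 0.31 (SE 0.10, limma adjusted p = 0.217) and Homer1 at 0.24 (SE 0.20, limma adjusted p = 0.683) the largest. The genotype-by-age test called 0 of 10 (0.448% of genes; 2 members at an unadjusted p below 0.05, as for 15.8%). In APP NL-G-F mice from 3 to 6 months limma called 0 of 10 (2.16% of genes; 5 members at an unadjusted p below 0.05, as for 18.7%), with Nptx1 at 1.01 (SE 0.37, limma adjusted p = 0.158) and Nptx2 at -0.79 (SE 0.27, limma adjusted p = 0.132). Nptx1 and Nptxr were higher in all 3 libraries at 6 months than in all 3 at 3 months, as were 9.53% of genes. Without replicate 1 at 3 months Arc was called in that step at -1.64 (SE 0.20, limma adjusted p = 0.00636) and Homer1 at -0.92 (SE 0.18, limma adjusted p = 0.0280), against 1.13% of genes. Without the scaling between libraries, the deposited TPM gave other counts. Limma then called 7 of 10 members between genotypes at 6 months, beside 58% of all genes, 1 averaged over ages (7.58%), 4 by age (33.1%), and, in HT-22 cells, 6 of 7 for anti-HSF1 against scramble under amyloid beta (50.7%). At 6 months that scale moved the median of all genes by 0.60.

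Wild-type mice had 0 of 10 members called by limma from 6 to 12 months (0% of genes; 1 member at an unadjusted p below 0.05, as for 6.72%). Arc and Npas4 were lower at 12 months without overlap, as were 6.1% of genes, with changes of -0.55 (SE 0.50, limma adjusted p = 0.885) and -0.72 (SE 0.33, limma adjusted p = 0.740). From 3 to 12 months limma called 0 of 10 (0.0617% of genes; 3 members at an unadjusted p below 0.05, as for 8.34%), while 8 of 10 were lower without overlap, against 14.6% of all genes. These were all members but Rheb and Plk2, and the members' median change was -0.43 against -0.01 over all genes. The wild type at 3 months held 2 libraries, and the Y-linked difference named above runs along this contrast. Whether age changed the members differently in the genotypes was tested only by the genotype-by-age term, which called none of them. That term carries the Y-linked difference too, and the 2 cannot be told apart in it.

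Marker sums also moved between 3 and 12 months in APP NL-G-F mice, beside the falls of Sik1 and Nptx2. Astrocyte markers summed to 989 to 1132 at 3 months and 1582 to 1748 at 12 months, microglial markers to 121 to 133 and 289 to 357, and dentate gyrus markers to 29.4 to 39.7 and 54.8 to 60.3. Oligodendrocyte markers summed to 1649 to 2812 and 1183 to 1320, and interneuron markers to 360.4 to 368 and 292 to 312. Striatal markers summed to 264, 90.2 and 66.7 in replicates 1, 2 and 3 at 3 months and to 43.4 to 55.8 at 12 months, and thalamic markers to 414, 123 and 36.7 and to 26.1 to 29.1, so these 2 sums were lower at 12 months than in any of the 3 replicates. The neuronal sums, 1758 to 2499 and 2050 to 2207, overlapped. Their part in the members' changes was not tested, and in whole tissue fewer cells of a type and less RNA per cell cannot be told apart.

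Other genes of the pathway were taken from 3 lists of immediate-early regulators (12 genes), later activity-regulated and secreted genes (10) and binding partners or effectors of the members (25, of which 24 were tested). From 3 to 12 months in APP NL-G-F mice 3.34% of all genes were called (1.49% lower). In that contrast 3 of 12 immediate-early genes fell and 0 rose, with a list median of -1.07. They were Fos, part of the AP-1 transcription factor, at -1.60 (SE 0.24, limma adjusted p = 0.00291), the zinc finger factor Egr2 at -1.38 (limma adjusted p = 0.0291) and the phosphatase Dusp1 at -1.04 (limma adjusted p = 0.0209). Fos was at 16.03 to 27.01 scaled TPM at 3 months, 8.29 to 10.2 at 6 months and 5.53 to 7.19 at 12 months, and at 9.95 to 12.6, 5.85 to 14.03 and 4.505 to 5.78 in the wild type. All 3 APP NL-G-F libraries at 3 months, replicate 1 among them, were thus above the other 14 libraries for Fos. The clock gene Per1 at -0.78 (limma adjusted p = 0.0147) and the secretogranin Scg2 at -0.55 (limma adjusted p = 0.0356) were the 2 of 10 later genes that fell, and the list median was -0.50.

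Among the partners 2 rose and 1 fell of 24 tested, with a median of 0.05. AMPA receptor subunit genes went in both directions, Gria1 rising by 0.72 (limma adjusted p = 0.0234) from 94.3 to 161 up to 199 to 220 scaled TPM, and Gria4 changing by -0.79 (limma adjusted p = 0.0208). Homer3, a paralog of Homer1, rose by 0.98 (limma adjusted p = 0.0412). From 3 to 6 months the same 3 immediate-early genes fell, Egr2 at -1.55 (limma adjusted p = 0.0243), Fos at -1.15 (limma adjusted p = 0.0260) and Dusp1 at -0.93 (limma adjusted p = 0.0446), and 0 of 10 later genes were called (2 at an unadjusted p below 0.05). Of the partners 3 rose and 1 fell in that step, in which 2.16% of all genes were called. Gria1 rose by 0.81 (limma adjusted p = 0.0186), Homer3 by 0.98 (limma adjusted p = 0.0487) and Crtc1, a CREB coactivator of the family that Sik1 acts on, by 0.67 (limma adjusted p = 0.0323), and Gria4 changed by -0.73 (limma adjusted p = 0.0399). Without replicate 1 at 3 months, 4 of 12 immediate-early genes fell from 3 to 6 months, Egr2 at -1.86 (limma adjusted p = 0.0191), Egr1 at -1.69 (limma adjusted p = 0.0153), Fos at -1.34 (limma adjusted p = 0.0245) and Egr4 at -0.99 (limma adjusted p = 0.0191), and limma called 0 of 10 later genes (7 at an unadjusted p below 0.05). Of the partners only Gria1 was called in that fit, at 0.60 (limma adjusted p = 0.0372), beside 1.13% of all genes. Dusp1, Crtc1, Gria4 and Homer3 (0.70, limma adjusted p = 0.148) were not. In the same fit 7 of 12 immediate-early, 4 of 10 later and 0 of 24 partner genes fell from 3 to 12 months, and no partner rose. Of all genes 2.27% were called there. The 7 were Egr1 at -2.16, Fosb at -1.84, Fos at -1.79, Egr2 at -1.69, Nr4a1 at -1.66, Egr4 at -1.62 and Junb at -0.90. The 4 were the prohormone convertase Pcsk1 at -1.15, Per1 at -0.98, the phosphatase Dusp6 at -0.92 and the activin subunit Inhba at -0.71. Dusp1, Scg2, Gria1, Gria4 and Homer3 were no longer called from 3 to 12 months in that fit. Fos, Egr2 and Per1, called in both fits, fell further without replicate 1, as Arc and Homer1 did. Counts from the fit without it are therefore not separate support.

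No gene of the 3 lists was called by limma between genotypes over all 17 libraries, at any age, averaged or by age, and none was called in the wild type. At an unadjusted p below 0.05 there were 5, 1 and 9 genes of the immediate-early, later and partner lists between genotypes at 3 months, 1, 3 and 8 at 6 months, and 0 in each list at 12 months. Averaged over ages there were 2, 0 and 7, by age 5, 2 and 10, in the wild type from 6 to 12 months 1, 0 and 0, and from 3 to 12 months 2, 3 and 1. These lists hold 12, 10 and 24 tested genes, and the shares of all genes at that p are those given beside the members' counts. On the deposited TPM without scaling limma called 5, 6 and 23 genes of the 3 lists between genotypes at 6 months, all higher (58% of all genes were called), 4, 3 and 21 by age (33.1%), 1, 1 and 3 averaged (7.58%), and at 3 months 0, 0 and 2 (0.398%), Homer3 at -1.32 and Gria1 at -1.01. Without APP NL-G-F replicate 1 at 3 months 5 genes were called higher in APP NL-G-F mice than in the wild type at 6 months, beside 2.75% of all genes. That library is not in this contrast, so the changes were the same in both fits and only the errors differed. The SE went from 0.35 to 0.25 for Fosb and from 0.22 to 0.12 for Inhba. They were Fosb by 1.05 (limma adjusted p = 0.0425), Inhba by 0.62 (limma adjusted p = 0.0193), the postsynaptic scaffold gene Shank3 by 0.52 (limma adjusted p = 0.0363), Crtc1 by 0.49 (limma adjusted p = 0.0343) and Tsc2, which holds Rheb inactive, by 0.42 (limma adjusted p = 0.0307). That contrast carries the Y-linked difference named above.

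Of 45 member pairs, 15 had an adjusted Pearson p and 10 an adjusted Spearman p below 0.05 over the 17 mouse libraries, and 9 had both. The permutations shuffled all 17 libraries without regard to group, so differences between ages and genotypes enter these p-values. No share over all gene pairs is given beside these counts, so they are not read as particular to the members. Arc and Npas4 had the highest rho of the 45, 0.87 (permutation p = 4e-05, adjusted 0.0018), with a Pearson r of 0.76 (permutation p = 0.00035, adjusted 0.00525), 0.74 without the 2 libraries farthest from the median of Arc, 0.76 without APP NL-G-F replicate 1 at 3 months, and 0.68 or, without it, 0.66 within groups. Arc and Homer1 had a Pearson r of 0.91 in log2(scaled TPM + 1) over 17 libraries (permutation p = 1e-05, the smallest that 100000 permutations can give, adjusted over the pairs 0.00045). Its Spearman rho was 0.77 (permutation p = 0.00038, adjusted 0.00855), and r was 0.78 without the 2 libraries farthest from the median of Arc and 0.90 without APP NL-G-F replicate 1 at 3 months. Within groups r was 0.94, and 0.66 without that library. Nptx1 and Nptxr had an r of 0.94 (permutation p = 6e-05, adjusted 0.00135) and a rho of 0.71 (permutation p = 0.00193, adjusted 0.0241), with 0.60 without the 2 farthest, 0.76 without that library, and 0.94 or, without it, 0.65 within groups.

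Bdnf went with members of both pairs. With Nptx1 its r was 0.85 (permutation p = 0.0005, adjusted 0.00562) and its rho 0.64 (permutation p = 0.00707, adjusted 0.0339), with an r of 0.70 without the 2 farthest and 0.54 without the 3-month library. With Homer1 its r was 0.70 (permutation p = 0.00377, adjusted 0.017) and its rho 0.71 (permutation p = 0.00214, adjusted 0.0241), with an r of 0.59 and 0.75 under the same omissions. With Arc the r was 0.62 (permutation p = 0.0105, adjusted 0.0364) and the rho 0.69 (permutation p = 0.00284, adjusted 0.0256), with an r of 0.66 and 0.61. Within groups and without that library the r with Nptx1, Homer1 and Arc was 0.43, 0.55 and 0.14. Arc and Nptx1 had an r of 0.27 (permutation p = 0.27, adjusted 0.418) and a rho of 0.083 (permutation p = 0.75), with an r of 0.42 without the 2 farthest and -0.03 without APP NL-G-F replicate 1 at 3 months. Their within-group r of 0.88 rested on that library, and was -0.11 without it. Nptx2 went with Sik1, at an r of 0.74 (permutation p = 0.00076, adjusted 0.00684) and a rho of 0.63 (permutation p = 0.00753, adjusted 0.0339), with 0.76 without the 2 farthest and 0.75 without the 3-month library. Within groups that r was 0.63, and 0.55 without it. Homer1 and Plk2 had an r of 0.64 (permutation p = 0.0124, adjusted 0.0397) and a rho of 0.65 (permutation p = 0.00548, adjusted 0.0308). Within groups their r was 0.94, and 0.74 without the 3-month library, the highest of the 45 pairs there. Arc and Plk2 had an r of 0.60 (permutation p = 0.0157, adjusted 0.0472) and a rho of 0.67 (permutation p = 0.00425, adjusted 0.0308). Within groups their r was 0.88, and 0.35 without that library. Nptx2 and Nptx1, proteins of 1 family, had an r of -0.02 and a rho of -0.11. Depth and tissue composition are shared by all genes of a library, and the pairs were not adjusted for them.

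**Figure D4:**
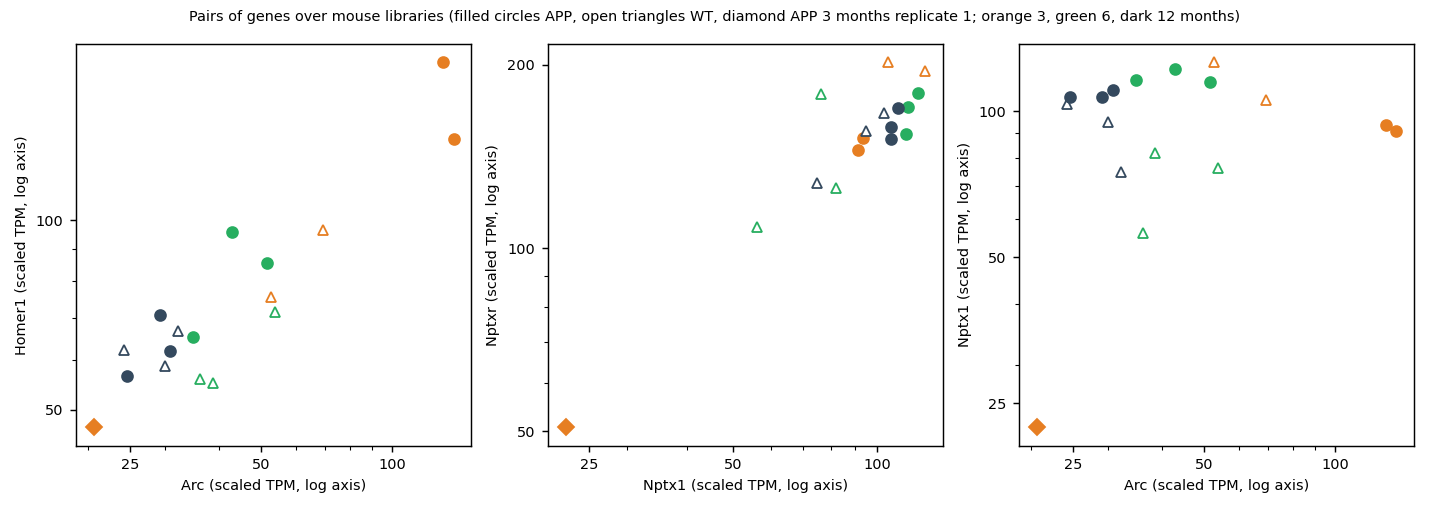
Scaled TPM (log axes) of Arc against Homer1, Nptx1 against Nptxr, and Arc against Nptx1 in the 17 mouse libraries, APP NL-G-F as filled circles, wild type as open triangles and APP NL-G-F replicate 1 at 3 months as a diamond, coloured by age. The first and second pair follow a line (r of 0.91 and 0.94), and the last does not (0.27).

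Over all 17840 tested genes, the genes most like 9 of the members were read off the same correlation, as a description over 17 libraries. Arc was nearest to the immediate-early genes Nr4a1 (r 0.94, and 0.96 without APP NL-G-F replicate 1 at 3 months) and Junb (0.91 and 0.90), with Homer1 in between. Npas4 was also nearest to Junb (0.86) and stood at 0.84 with Nr4a1. Sik1 was nearest to the intermediate filament gene Ina (0.95 and 0.95) and the signalling inhibitor Spry4 (0.94 and 0.94). Nptx1 was nearest to the kinase gene Prkce (0.98 and 0.93), Nptxr to the transcription factor Neurod1 (0.97 and 0.86) and Plk2 to Vxn (0.96 and 0.88). Homer1 was nearest to Prickle1 (0.92 and 0.91), Nptx2 to Dusp14 (0.88) and Rheb to the chaperone gene Dnaja2 (0.87 and 0.88).

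HT-22 cells held 7 of the 10 members at a mean TPM of at least 1, and 6 when 3 libraries that stood apart were left out. Npas4 reached that mean through those libraries (4.26 to 6.20 scaled TPM), and in the other 11 it was at 0 to 0.265. Nptx1 and Nptx2 were listed at 0 in 14 of 14 libraries and Arc in 12 of 14, with 0.310 and 0.239 scaled TPM in the other 2. With all 31 libraries on 1 scale, HT-22 levels were below all hippocampal levels for Homer1 (4.30 to 20.2 against 63.2 to 239), Rheb (23.9 to 46.4 against 59.8 to 88.7) and Nptxr (42.3 to 53.6 against 68.4 to 274). Plk2 (68.7 to 430.3 against 57.0 to 150.3), Sik1 (9.45 to 24.7 against 3.27 to 12.5), Bdnf (4.10 to 14.8 against 6.76 to 22.3) and Npas4 (0 to 4.34 against 1.19 to 9.22) overlapped between cells and tissue. Systems and batches cannot be told apart in that comparison, so no test is given.

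Levels in HT-22 cells followed 3 libraries more than the treatment groups. Those were amyloid beta with scramble replicates 3 and 4 and reverse peptide with scramble replicate 4, and they held the 3 highest values of 6 members, as they did for 15.9% of the genes tested. Plk2 was at 98.6, 105, 545 and 616 scaled TPM with amyloid beta and scramble, 106, 116 and 114 with amyloid beta and anti-HSF1, 128, 119, 117 and 441 with reverse peptide and scramble, and 139, 129.6 and 129 with reverse peptide and anti-HSF1. Both scramble groups thus held low and high libraries, and all anti-HSF1 libraries were low. The 3 libraries ranged from 4.26 to 6.20 for Npas4 (0 to 0.265 in the other 11), from 21.4 to 29.0 for Homer1 (6.18 to 9.56) and from 17.03 to 21.2 for Bdnf (5.91 to 8.16).

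Sik1 was at 29.2 to 35.3 in the 3 libraries (13.6 to 19.0 in the others) and Rheb at 54.2 to 65.4 (34.3 to 42.8). Nptxr did not share this pattern, at 60.7 to 62.2 against 60.8 to 77.0. Of the 12 immediate-early regulators 11, all but Egr4, were also highest in the 3 libraries, among them Nr4a1 at 206 to 225 (0.955 to 6.96 in the others) and Fos at 37.1 to 67.2 (2.56 to 6.81). Their relative depths were 1.635, 1.203 and 2.599, against 0.724 to 1.21 in the other 11 libraries. Apart from replicate numbers, the labels name nothing that sets these 3 libraries apart. Both long-RNA HT-22 libraries numbered 4 were among the 3, while the other libraries numbered 3 were not. The part of depth or of replicate number in these levels was not tested.

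**Figure D5:**
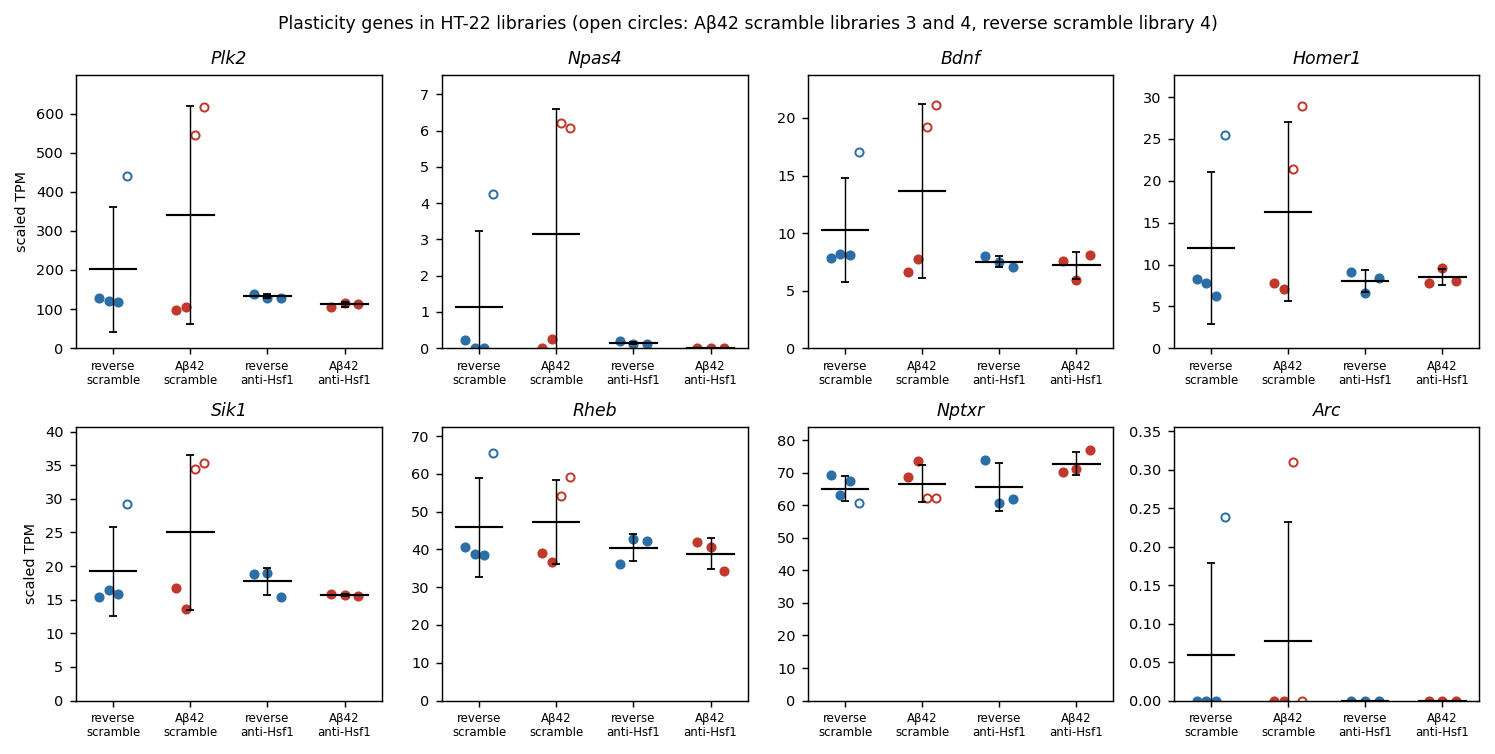
Scaled TPM of 8 members in the 14 HT-22 libraries by peptide (amyloid beta red, reverse peptide blue) and LNA, with bars for the mean and SD. Open circles mark amyloid beta with scramble replicates 3 and 4 and reverse peptide with scramble replicate 4, which hold the 3 highest values of Plk2 (441 to 616), Npas4, Bdnf, Homer1, Sik1 and Rheb.

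Between treatments limma called 0 of the 7 tested members in all 4 HT-22 contrasts, and 0 had an unadjusted p below 0.05. That p was found for 4.95% of genes for amyloid beta against reverse peptide with scramble and 4.65% with anti-HSF1, and for 3.65% for anti-HSF1 against scramble under the reverse peptide and 8.99% under amyloid beta. The share of all genes called was 0% in 3 of them and 0.0231% for anti-HSF1 against scramble under amyloid beta. With scramble, amyloid beta against reverse peptide gave 0.53 for Plk2 (SE 0.58, limma adjusted p = 0.953) and 0.83 for Npas4 (SE 0.67, limma adjusted p = 0.953). Without the 3 libraries Plk2 turned to -0.26 (SE 0.08, limma adjusted p = 0.546), and Npas4 fell under the TPM minimum. With anti-HSF1, where none of the 3 libraries lie, Plk2 was lower under amyloid beta without overlap (9.24% of genes), at -0.24 (SE 0.67, limma adjusted p = 0.9999) in the full fit and -0.24 (SE 0.07, limma adjusted p = 0.411) without them. Npas4 was likewise lower there without overlap, listed at 0 in all 3 amyloid beta libraries and at 0.190, 0.123 and 0.125 under the reverse peptide, a change of -0.20 (SE 0.78).

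Anti-HSF1 against scramble under amyloid beta gave -1.11 for Plk2 (SE 0.63, limma adjusted p = 0.576) and -1.50 for Npas4 (SE 0.73, limma adjusted p = 0.556). Plk2 turned to 0.14 (SE 0.08, limma adjusted p = 0.725) without the 3 libraries. Under the reverse peptide the changes were -0.34 for Plk2 (SE 0.63, limma adjusted p = 0.960) and -0.48 for Npas4 (SE 0.73, limma adjusted p = 0.959), and Plk2 was at 0.12 (SE 0.07, limma adjusted p = 0.946) without them. The 3 libraries were singled out after their high values were seen, and all had received the scramble, so leaving them out was bound to lower the scramble groups, and these turns in sign describe the same observation. Of the pathway lists, 11 immediate-early, 8 later and 13 partner genes were tested in HT-22 cells. Limma called 0 of them in any of the 4 contrasts, and 1 later gene had an unadjusted p below 0.05, for anti-HSF1 against scramble under amyloid beta. On the deposited TPM without scaling 2, 4 and 10 genes of the lists were called in that contrast, all lower, beside 50.7% of all genes, and 1, 0 and 5 for amyloid beta against reverse peptide with anti-HSF1, beside 24.3%.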

How the data were processed

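Long RNA was sequenced from 17 mouse hippocampus and 14 HT-22 libraries. The deposited tables, in the StringTie gene abundance layout per the file headers, give each gene a TPM, an FPKM and a coverage signal. The submitters' processing notes name FastQC, cutadapt 1.18, BWA 0.7.17, HISAT2 2.1.0, bedtools 2.26.0 and StringTie 1.3.4d, with mm10 and GRCm38. The roles of these tools and the strand setting were not stated in the labels or headers used here. Each table's TPM add up to between 999823 and 999917, so they keep no depth, and relative depth was read from the deposited coverage over FPKM.

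TPM rows were summed per gene identifier and divided by median-of-ratios factors from 20713 genes in mice and 16878 in HT-22 cells. Genes whose TPM averaged 1 or more entered limma 3.58.1 (R 4.3.3, trend and robust empirical Bayes) as log2(scaled TPM + 1), with 6 mouse and 4 HT-22 groups, no covariates and Benjamini-Hochberg adjustment. Pseudocounts understate changes of low genes. The script was tested on simulated data. Summaries used Python 3.11.15, pandas 2.3.3, numpy 2.4.6 and scipy 1.17.1.

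The members and lists were chosen with earlier results of these data known. Changes with SE are given for members past the threshold and otherwise mainly for the 2 largest in a contrast; other pathway genes are named where they passed. Wild type at 12 against 3 months, and the fit without 3 HT-22 libraries, were added after seeing the data. Alternatives were deposited TPM without scaling, a pseudocount of 0.1, no filter, the contrast's groups alone, a replicate block and leaving out each library. Outside the replicate block, replicate numbers were not used to pair libraries. Short-RNA libraries were not used.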

Additional observations from a re-analysis of the deposited data

Results flagged for a closer look

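Among HT-22 groups of 4 libraries, 16 gene and group combinations were examined for a library far from the other 3, which chance gives in about 1 of 20 groups, and 8 had one. Reverse peptide with scramble replicate 4 was far above its group for 7 members. It held 441 scaled TPM of Plk2, 65.4 of Rheb, 29.2 of Sik1, 25.5 of Homer1, 17.03 of Bdnf, 4.26 of Npas4 and 0.239 of Arc. Arc was also far above its group in amyloid beta with scramble replicate 3, at 0.310 scaled TPM with the other 3 libraries listed at 0. The values for 1 library are not independent of each other, and any trace of Arc beside 3 libraries listed at 0 is flagged. The count of 8 can therefore not be set against the rate of 1 in 20.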

How the results depend on the processing

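Of the counts of called members, 261 under the alternatives stayed within 1.5 times their value and 15 did not. Every count in the main fit was 0 except that from 3 to 12 months in APP NL-G-F mice. Most of the 261 were thus a 0 that stayed 0, so the tally does not gauge how stable that 1 count was. Without scaling the deposited TPM, limma called 7 members between genotypes at 6 months, 1 averaged over ages, 4 by age and 6 for anti-HSF1 against scramble under amyloid beta. That scale moved the median of all genes by 0.60 at 6 months and -0.62 in the HT-22 contrast. From 3 to 12 months in APP NL-G-F mice 1 member was called with no filter (Nptx2 then at a limma adjusted p of 0.0525) and 0 with these groups alone, where Sik1 had 0.0560 and Nptx2 0.0832. Leaving out each library gave 0 to 4 members there, 0 to 2 from 3 to 6 months and 0 to 1 between genotypes at 6 months, and 0 in every other comparison. Over these fits Sik1 ranged from -1.003 to -0.78 and Nptx2 from -1.50 to -0.98.

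Without APP NL-G-F replicate 1 at 3 months, changes not called and not printed above turned sign in mice, Bdnf from 0.11 to -0.33 and Plk2 from 0.08 to -0.30 (3 to 12 months), Bdnf from 0.37 to -0.06 and Plk2 from 0.07 to -0.32 (3 to 6 months), and Bdnf from -0.37 to 0.06, Npas4 from -0.08 to 0.24 and Plk2 from -0.32 to 0.07 (genotypes at 3 months). On the deposited TPM, among other turns, Rheb at 6 months went from -0.15 to 0.56 and Npas4 from -0.42 to 0.14 between genotypes. In HT-22 cells, without the 3 libraries Plk2 was at -0.26 for amyloid beta against reverse peptide with scramble, and at 0.14 and 0.12 for anti-HSF1 against scramble under amyloid beta and reverse peptide. Without reverse peptide scramble replicate 4, that last contrast gave 0.12 for Plk2 and 0.093 for Npas4. Leaving out each library, it ranged from -0.51 to 0.12 for Plk2 and from -0.71 to 0.093 for Npas4. The cause was not tested.

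Replicate numbers were shared between groups, but deviations of same-numbered libraries had median correlations of -0.007 in mice and 0.015 in HT-22 cells. Single correlations ranged from -0.15 to 0.23 in mice and from -0.22 to 0.57 in HT-22 cells. With a replicate block 2 members were still called from 3 to 12 months in APP NL-G-F mice (Sik1 at a limma adjusted p of 0.0224, Nptx2 at 0.0293) and 0 elsewhere. The block turned anti-HSF1 against scramble under the reverse peptide to 0.12 for Plk2 and 0.026 for Npas4. Groups of 2 or 3 mice and unknown read counts limit the precision of every change.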
